A study of Mus musculus with 6 samples.

Results

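The motor of striated muscle was examined here through the myosin heavy chains, myosin light chains and slow myosin-binding protein C spotted on a muscle array. Spots carrying the gene symbols MYH1, MYH7, MYL3, MYL6B, MYBPC1, MYH2, MYH3, MYH8, MYL1 and MYL2 were taken. Of these 10 genes, 7 were found, with 22 of the array's 2688 probes and 44 of its 5376 spots, against 1521 named genes in all. MYH3 and MYH8, the embryonic and perinatal heavy chains, and MYL1, the fast light chain, were not analysed here. Developmental heavy chains therefore had no value, and 3 of 5 heavy chains and 3 of 4 light chains of the set were measured.

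RNA of the C2C12 clone MyoD(-)cl.A8, which carried a construct expressing the mouse MyoD transcript in antisense orientation, was set against RNA of C2C12 control cells at days 1, 3 and 6 in differentiation medium with horse serum. C2C12 is a mouse (C3H) myoblast line that fuses into myotubes, and the clone was a single drug-resistant line, so clone and silencing cannot be told apart. A pair of arrays was hybridised for each day, replicate A and, with exchanged dyes, replicate B, 6 arrays in all. Since both arrays of a day compared the same kinds of RNA, they were counted once (n = 3 days), and there was no biological replicate within a day.

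The deposited values are scores per spot, centred near 0, whose scale and direction are not stated. No fold changes are given. Positive scores are taken as higher in the clone and negative scores as lower in the clone than in control cells, a likely direction, since the clone is the test sample in the labels and control cells serve as its reference. A score is a difference between the cells, not a level, so whether muscle markers were present in either could not be checked. MYOD1, the silenced gene, scored 0.41 and -0.36 on day 1, 1.11 and -1.03 on day 3, and 0.50 and 0.26 on day 6, with opposite signs on the arrays of days 1 and 3. Whether its probe also bound RNA of the antisense construct was not tested, so it does not check the silencing. The probes were made for human genes and the RNA was from mouse. Whether a heavy chain probe also bound RNA of a related heavy chain was not tested. Spot duplicates on 1 array correlated at 0.25 to 0.60 over all probes, the arrays of a day at 0.16 to 0.21 over all features, and arrays of different days at -0.08 to 0.12.

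Each thick filament is a bundle of myosin molecules. A molecule holds a pair of heavy chains, whose heads bind actin and split ATP, and each head carries an essential and a regulatory light chain. Fibres that differ in speed use different heavy chain genes: MYH7 is the slow form, which is also the beta chain of heart, MYH2 and MYH1 are the fast IIa and IIx forms, and embryonic and perinatal forms come first in development. Myosin-binding protein C lies across the thick filament and holds back or releases the heads. MyoD binds E-boxes, DNA motifs spelled CANNTG, and drives muscle genes as myoblasts stop dividing and fuse.

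The mouse promoters of the genes whose scores lay farthest below 0 on a day are shown because MyoD and TEAD factors, known regulators of muscle promoters, bind short motifs that can be searched in them. All 7 genes matched a RefSeq promoter by symbol (GRCm38.p6). Each sequence gives the bases before the start of transcription, cut off where the annotated gene begins, 5′ to 3′ on the gene's strand, with E-boxes (CANNTG) and the TEAD motif CATTCC in capitals on either strand (GGAATG is CATTCC on the other strand).
Myh7, chr14:54994627-54994876, minus strand: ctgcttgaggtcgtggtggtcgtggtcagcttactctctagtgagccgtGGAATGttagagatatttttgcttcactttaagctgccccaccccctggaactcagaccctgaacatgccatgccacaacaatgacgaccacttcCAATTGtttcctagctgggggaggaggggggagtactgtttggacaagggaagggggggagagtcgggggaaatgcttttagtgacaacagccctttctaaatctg
Mybpc1, chr10:88605230-88605402, minus strand: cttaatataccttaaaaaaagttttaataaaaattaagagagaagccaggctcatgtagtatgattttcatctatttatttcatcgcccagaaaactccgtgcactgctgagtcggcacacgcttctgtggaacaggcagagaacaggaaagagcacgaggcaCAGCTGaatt
Myh1, chr11:67199852-67200101, plus strand: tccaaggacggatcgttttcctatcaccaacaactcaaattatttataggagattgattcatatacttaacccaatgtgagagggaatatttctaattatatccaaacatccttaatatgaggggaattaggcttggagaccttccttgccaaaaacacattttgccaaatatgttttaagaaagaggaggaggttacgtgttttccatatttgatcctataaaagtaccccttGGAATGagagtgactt
Myl3, chr9:110763428-110763677, plus strand: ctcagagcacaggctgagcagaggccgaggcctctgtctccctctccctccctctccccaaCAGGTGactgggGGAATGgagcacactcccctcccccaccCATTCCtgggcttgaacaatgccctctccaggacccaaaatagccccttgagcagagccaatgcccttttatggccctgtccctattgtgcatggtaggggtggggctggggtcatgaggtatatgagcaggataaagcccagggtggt
In these stretches Myh7 and Myl3 held 1 E-box each, Mybpc1 held 1, the E-box CAGCTG, and Myh1 held none. The TEAD motif stood once in the Myh7 and Myh1 stretches and at 2 places in that of Myl3. Over all 32851 promoters of 250 bases, 66.2% held CANNTG, 13% held CAGCTG, which is one of the CANNTG words, and 12.6% held CATTCC. The Mybpc1 stretch is shorter, with 173 bases, and its full 250 bases held 2 CANNTG. Another Myh7 promoter, not shown, held 2 CANNTG and 0 CATTCC in 250 bases. A motif match is a description of the letters only. In the mouse, Myh2 and Myh1 are neighbours on chromosome 11, between Myh3 and Myh4, while Myh7 lies next to the cardiac alpha chain gene Myh6 on chromosome 14.

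Of the 3 heavy chains and MYBPC1, 1 passed a test on any day, MYH7 on day 3. MYH7 (Entrez Gene 4625), the slow heavy chain, scored -4.24 and -3.08 on the 2 arrays, a mean of -3.66, while it stood at -0.10 and -0.28 on day 1 and at 0.30 and 0.04 on day 6. Its day mean was lowest on day 3. When limma was fitted to the 6 arrays, with an error that comes from the dye-swapped pairs alone, MYH7 fell in the clone on day 3 (-3.66, lower on 2 of 2 arrays, adjusted p = 0.0145). It was the single one of the 7 genes to pass and the single one at least 2 units from 0 on both arrays. Over all 2466 features (genes, and probes with no gene symbol) the fit called 0.324% on day 3. At least 2 units from 0 on both arrays were 1.26% in either direction and 0.811% lower. On days 1 and 6 none of the 7 genes passed, where the fit called 0.243% and 0.284% of features and 0.811% and 1.82% were at least 2 units from 0. At an unadjusted p under 0.05 there were 1, 3 and 1 of the 7 genes on days 1, 3 and 6, with 6.16%, 9.57% and 11.1% of features. MYH7 had the fourth lowest day 3 mean of the 1521 genes. In bulk RNA, fewer cells of a type and less RNA per cell cannot be told apart.

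The MYH7 call rests on few arrays. Leaving out the day 3 replicate A or B only returns the score of the other array, -3.08 or -4.24. Arrays of other days do not enter the day 3 mean. In limma the adjusted p of MYH7 was 0.102 without day 1 and 0.0536 with the median of its spots. It was 0.0682 with a term for dye orientation, where 0.162% of features were called on day 3. Over the 3 days the mean of MYH7 was -1.23 ± 2.12 (SD, n = 3 days), which did not pass limma's test of a shared change (adjusted p = 0.731).

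All 5 MYH7 probes were below 0 on both day 3 arrays, to different depths. The probe at spots 21 and 22 scored -5.00 and -6.82, and that at spots 407 and 408 scored -3.51 and -4.56. These 2 probes passed when each probe was fitted on its own (limma, adjusted p = 0.000141 and 0.00454), as did 0.558% of all probes. The other probes scored -2.62 and -2.08, -4.73 and -1.35, and -5.27 and -0.64 on replicates A and B. On replicate B the last 2 of these differed little between days: the probe at spots 4405 and 4406 had -1.35 on day 3 and -1.26 on day 1, and that at spots 4575 and 4576 had -0.64 on day 3, -0.58 on day 1 and -0.84 on day 6. Of 20 spot values on day 3, 19 were below 0 and 15 were at least 2 units below it, a depth that 8.35% and 8.50% of all spots on these arrays reached. Probes below 0 on both day 3 arrays made up 26.8% of the array, and probes at least 2 units below 0 on both made up 0.967%, against 5 and 3 of the 5 MYH7 probes. Probes of 1 gene are not replicates, and MYH7 was singled out by its day 3 scores, so these shares are no test. On day 1 the 5 probes had means from -0.47 to 0.18, and on day 6 from -0.47 to 1.66.

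The MYH7 probes lay at 5 separate places in the order of spot numbers, which is not shown to be their position on the slide. For each, the median of 10 nearby probes in that order was subtracted, taking alternate probes up to 10 places away on either side. Their day 3 means were then -6.19, -4.23, -2.58, -2.55 and -2.68. The MYH7 score was then -3.65 (adjusted p = 0.00607 in limma), against -3.66 without. Among the 7 genes with at least 5 probes, MYH7 had the lowest day 3 mean, and the next was the tropomyosin TPM2 at -0.71 over 10 probes.

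**Figure D1:**
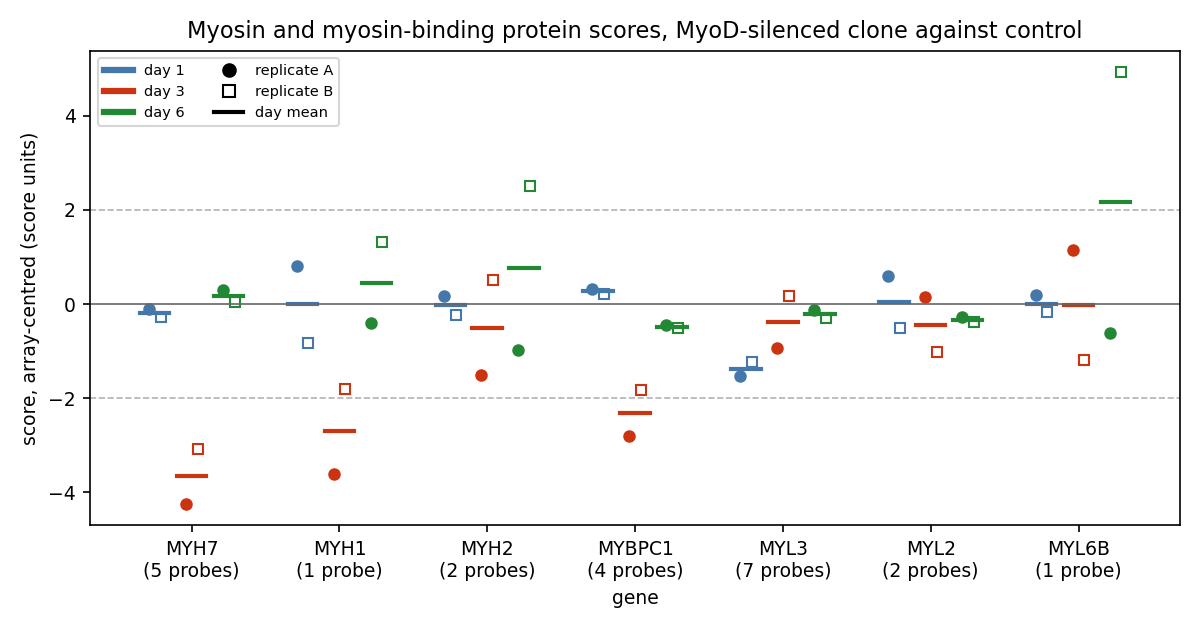
Array-centred scores (vertical axis, score units) of the 7 genes on each of the 6 arrays, with filled circles for replicate A, open squares for replicate B, bars for day means and dashed lines at 2 units from 0. The day 3 points are -4.24 and -3.08 for MYH7, -3.61 and -1.80 for MYH1, and -2.79 and -1.83 for MYBPC1. MYL6B on day 6 shows 1 array at 4.93 and the other at -0.61.

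MYBPC1 (Entrez Gene 4604), slow myosin-binding protein C, also had its lowest scores on day 3. It scored 0.32 and 0.22 on day 1, -2.79 and -1.83 on day 3, and -0.45 and -0.51 on day 6. The day 3 mean of -2.31 did not pass limma's 6-array fit (adjusted p = 0.164, lower on 2 of 2 arrays). Over the days MYBPC1 averaged -0.84 ± 1.33 (SD, n = 3 days; limma's adjusted p = 0.812).

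Of the 4 MYBPC1 probes, 3 had day 3 means of -3.68, -2.67 and -2.54. The probe at spots 101 and 102 stood apart at -0.35. The lowest, at spots 2883 and 2884, scored -3.56 and -3.80 on the arrays and passed as a single probe (limma, adjusted p = 0.0112). The probe at spots 101 and 102 also had the most unequal duplicates of all 22 probes, with deposited scores of 2.96 and -8.03 on the day 6 replicate A. Leaving it out, a choice made after its values were seen, put the gene at -2.97 on day 3 and at least 2 units from 0 on both arrays (limma's adjusted p = 0.0888).

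MYH1 (Entrez Gene 4619), the fast IIx heavy chain, had 1 probe. Its scores were 0.82 and -0.82 on day 1, -3.61 and -1.80 on day 3, and -0.41 and 1.32 on day 6. Its day mean was lowest on day 3. The day 3 mean of -2.70 did not pass limma's 6-array fit (adjusted p = 0.164), nor did the mean over the days, -0.75 ± 1.71 (SD, n = 3 days; adjusted p = 0.899), which was 0.23 without day 3. Its duplicate spots gave -4.26 and -2.95 on the day 3 replicate A but 0.17 and -3.70 on replicate B.

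MYH2 (Entrez Gene 4620), the fast IIa heavy chain, had overlapping days. It scored 0.17 and -0.22 on day 1, -1.52 and 0.51 on day 3, and -0.98 and 2.50 on day 6. Within days 3 and 6 its arrays had opposite signs. Its day 3 mean of -0.50 was its lowest, and it did not pass limma's 6-array fit (adjusted p = 0.930). On day 6 its 2 probes had means of -0.83 and 2.34, so the gene's mean over the days, 0.08 ± 0.64 (SD, n = 3 days; limma's adjusted p = 0.990), joins probes that differed. It changed sign when the day 3 replicate B (-0.26) or the day 6 replicate B (-0.50) was left out.

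The slow MYH7 and the fast MYH1 and MYH2 are too few to judge whether slow and fast heavy chains group by their scores. On day 3 the slow MYH7 lay below the mean of the fast MYH1 and MYH2 by differences of -1.68 and -2.44 score units on the arrays. Most of that gap came from MYH2: MYH7 minus MYH2 was -2.73 and -3.60, whereas MYH7 minus MYH1 was -0.64 and -1.28. The fast MYH1 minus the fast MYH2 was -2.09 and -2.31. On day 1 the slow minus fast difference was -0.60 and 0.25, and on day 6 it was 0.99 and -1.87, with opposite signs on the arrays of each day. These differences between genes were not tested. Slow and fast myosin-binding protein C stood at -2.31 for MYBPC1 and -0.64 for MYBPC2 on day 3, a difference of -2.87 on replicate A and -0.48 on replicate B.

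MYH7, MYBPC1 and MYH1, the 3 genes low on day 3, were singled out after their values were seen. Their 10 probes were below 0 on both day 3 arrays, which that choice favours, so this is a description and no test. All 7 genes had a day 3 mean below 0, against 50% of all features, with a median of -0.50 over the 7 and of 0.0004 over all features. Only MYH7, MYBPC1 and MYH1 were below 0 on both day 3 arrays. MYH2, MYL2, MYL3 and MYL6B had opposite signs on them, and the mean of MYL6B was -0.02. The genes were chosen with earlier results of these data known, so the count is no test. On day 1 the means of 4 of 7 were below 0 (median -0.0036) and on day 6 those of 3 of 7 (median 0.17).

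**Figure D2:**
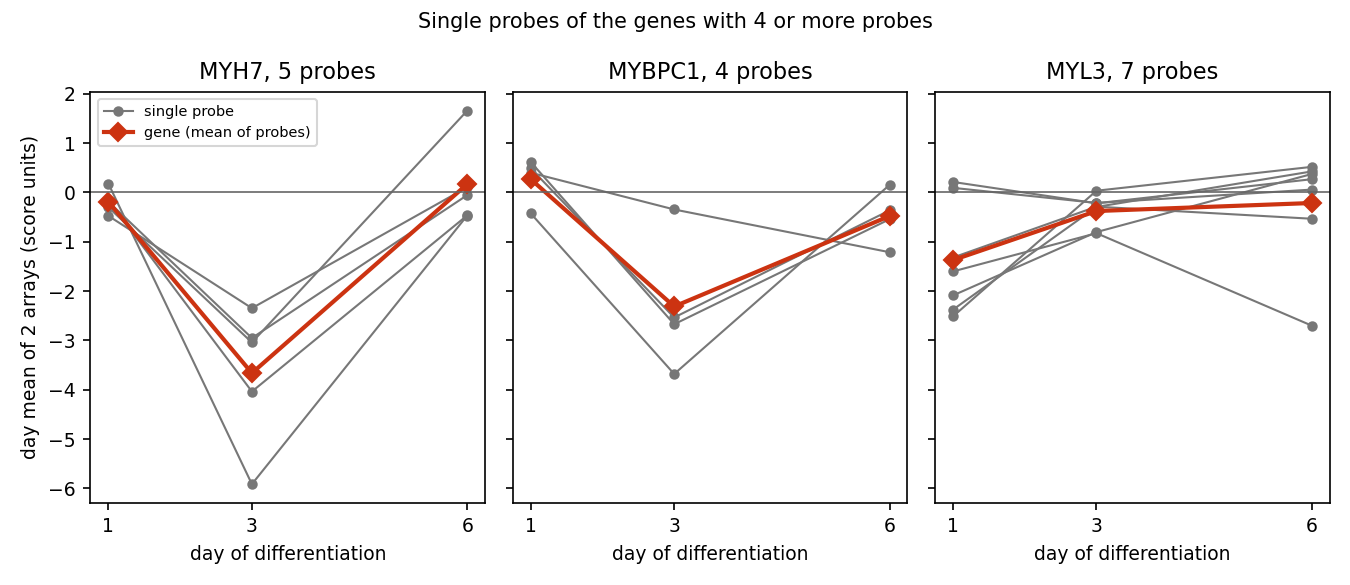
Day means of the 2 arrays (vertical axis, score units) against the day of differentiation (horizontal axis) for each probe (grey) and for the gene (red) of MYH7, MYBPC1 and MYL3. The 5 MYH7 probes have day 3 means from -5.91 to -2.35, 1 of the 4 MYBPC1 probes stays at -0.35, and 5 of the 7 MYL3 probes have day 1 means from -2.51 to -1.32.

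None of the 3 light chains passed limma's 6-array fit on any day. MYL3 (Entrez Gene 4634), the essential light chain of slow muscle and ventricle, scored -1.52 and -1.22 on day 1, -0.93 and 0.18 on day 3, and -0.13 and -0.30 on day 6. Its day mean was lowest on day 1. The day 1 mean of -1.37 did not pass limma's 6-array fit (adjusted p = 0.781, lower on 2 of 2 arrays, against 0.243% of features called), nor did the mean over the days of -0.65 ± 0.63 (SD, n = 3 days; adjusted p = 0.884). With 7 probes MYL3 was the best covered of the set. On day 1, 5 of them were at least 1 unit below 0 on both arrays, as were 4.43% of all probes. The means of these 5 were -2.51, -2.38, -2.09, -1.60 and -1.32. The remaining 2 probes stood at 0.09 and 0.21. At the threshold of 2 units, 0 of the 7 probes were that low on both day 1 arrays. Probes of 1 gene are not replicates, so the share is no test. The probe at spots 1743 and 1744 differed from the rest on day 6, with -2.52 and -2.88, while the other 6 had day 6 means from -0.53 to 0.52.

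MYL2 (Entrez Gene 4633), the regulatory light chain of slow muscle and ventricle, had the smallest SD over days of the set. It scored 0.59 and -0.51 on day 1, 0.14 and -1.02 on day 3, and -0.28 and -0.39 on day 6, with overlapping days, a lowest day mean of -0.44 on day 3 and a mean over the days of -0.24 ± 0.25 (SD, n = 3 days; limma's adjusted p = 0.983). Its 2 probes had day 6 means of -1.0 and 0.30. MYL6B (Entrez Gene 140465), an essential light chain made in slow muscle and in non-muscle tissue, scored 0.19 and -0.16 on day 1, 1.15 and -1.19 on day 3, and -0.61 and 4.93 on day 6. Its day 6 mean of 2.16 rested on replicate B. It did not pass limma's 6-array fit (adjusted p = 0.427). Its day 6 score was -0.61 on replicate A alone and 4.93 on replicate B alone. Both duplicate spots of its single probe were high there, at 5.45 and 4.44. Over the days MYL6B averaged 0.72 ± 1.25 (SD, n = 3 days; limma's adjusted p = 0.887) and -0.0054 without day 6.

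Over the 3 days none of the 7 genes passed limma's shared test, which called 0.365% of all features, and none had an unadjusted p under 0.05, against 6.65% of features. In order of their means over the days the genes ran from MYH7 (-1.23) through MYBPC1 (-0.84), MYH1 (-0.75), MYL3 (-0.65), MYL2 (-0.24) and MYH2 (0.08) to MYL6B (0.72). Every gap between neighbours in this order was smaller than the larger SD over days of the pair.

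The days were then compared with each other in the same 6-array fit, to ask whether the difference between clone and control moved with differentiation. Day 3 minus day 1 was -3.47 for MYH7 (limma's adjusted p = 0.448), -2.70 for MYH1 (adjusted p = 0.589) and -2.58 for MYBPC1 (adjusted p = 0.549). Day 6 minus day 3 was 3.83 for MYH7 (adjusted p = 0.132), 3.16 for MYH1 (adjusted p = 0.345) and 1.83 for MYBPC1 (adjusted p = 0.591). For MYL3, day 6 minus day 1 was 1.16 (adjusted p = 0.764). None of the 21 tests of the 7 genes passed after Benjamini-Hochberg adjustment over all features. At an unadjusted p under 0.05 there were 3 genes from day 1 to day 3, 2 from day 3 to day 6 and 0 from day 1 to day 6, with 7.62%, 8.76% and 8.27% of all features. After adjustment these comparisons called 0.162%, 0.0406% and 0.365% of features.

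Genes with the scores most like a member's over the 6 arrays were found by Euclidean distance among 1521 genes. For MYH7 the nearest were MYBPC1 at a distance of 2.22, MYH1 at 2.31 and IFITM1, an interferon-induced membrane protein, at 2.31, against a median distance of 5.78. MYBPC1 had HCFC1R1 (0.92), RNF123 (1.52) and LDB3 (1.59), a Z-disc protein with day scores of -0.41, -2.34 and -0.96, as its nearest, with a median of 4.19. MYH1 had STK25 (1.88), PDLIM5 (2.00), another protein of the Z-disc, and PRR14 (2.17). MYL6B had ABCF3 (2.34), WDR83OS (2.35) and the skeletal actin ACTA1 (2.51), which shared high day 6 replicate B scores of 3.88, 5.68 and 3.97. The arrays share RNA and dye orientation, and likeness is a description.

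The other parts of the thick filament and the rest of the sarcomere were read from lists of genes. Of 21 other thick filament and M-band genes, 6 were measured, and none passed on any day or over the days. Their medians on days 1, 3 and 6 were 0.08, -0.53 and 0.35. By mean over the days the lowest were MYLK2, the light chain kinase of skeletal muscle, at -0.76, and MYL11, the fast regulatory light chain, at -0.33, whose day 1 scores were -3.84 and -0.78. SMYD1, a methyltransferase of muscle (0.53), and the M-band protein MYOM2 (0.21) were highest. Of 18 genes of smooth and non-muscle myosin, 3 were measured, with medians of 0.17, -0.53 and -0.47. PPP1R14B, a phosphatase inhibitor that acts on myosin phosphatase, rose on day 3 (6.24 and 4.87, limma's adjusted p = 0.00365). Over the days it averaged 1.03 ± 3.96 (SD, n = 3 days; limma's adjusted p = 0.937), with a day 6 mean of -1.82. The regulatory light chains MYL9 and MYL12A of smooth and non-muscle myosin had day 3 means of -1.12 and -0.53 and means over the days of -0.27 and -0.17.

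Of the genes listed as fast thin filament forms, 7 were measured, and none passed limma on any day or over the days. The list is mixed: ACTN3 is a Z-disc protein, and ACTA1 and TPM2 are not limited to fast fibres. Its counts and medians therefore do not describe fast forms alone. A day 1 mean below 0 was found for 7 of 7, a day 3 mean below 0 for 4 of 7, and a day 6 mean above 0 for 7 of 7. TPM2 and ACTN3 were lower on day 3 (-0.71 and -0.54) than on day 1 (-0.05 and -0.23). Their medians were -0.91, -0.31 and 1.17 on days 1, 3 and 6, against 0.02, 0.0004 and 0.0034 over all features. On both arrays 6 of 7 were below 0 on day 1 (26.8% of features) and 6 of 7 above 0 on day 6 (28.2%). TPM1 (0.37) and ACTN3 (0.29) had the highest means over the days, and the troponin TNNC2 (-0.19) and TPM2 (-0.07) the lowest. Slow or cardiac thin filament genes, 5 measured, had medians of 0.18, 0.24 and -0.22, with ACTC1 (0.68) and TNNI3 (0.25) highest and TNNI1 (-0.06) and TNNC1 (0.06) lowest. The slow troponin TNNT1, with 9 probes, had day means of -0.54, -0.20 and 1.26, a course like that of the fast TNNT3 (-0.91, -0.46 and 1.17). ACTC1, TNNI3, TNNI1 and TNNC1 did not go from below 0 on day 1 to above 0 on day 6.

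**Figure D3:**
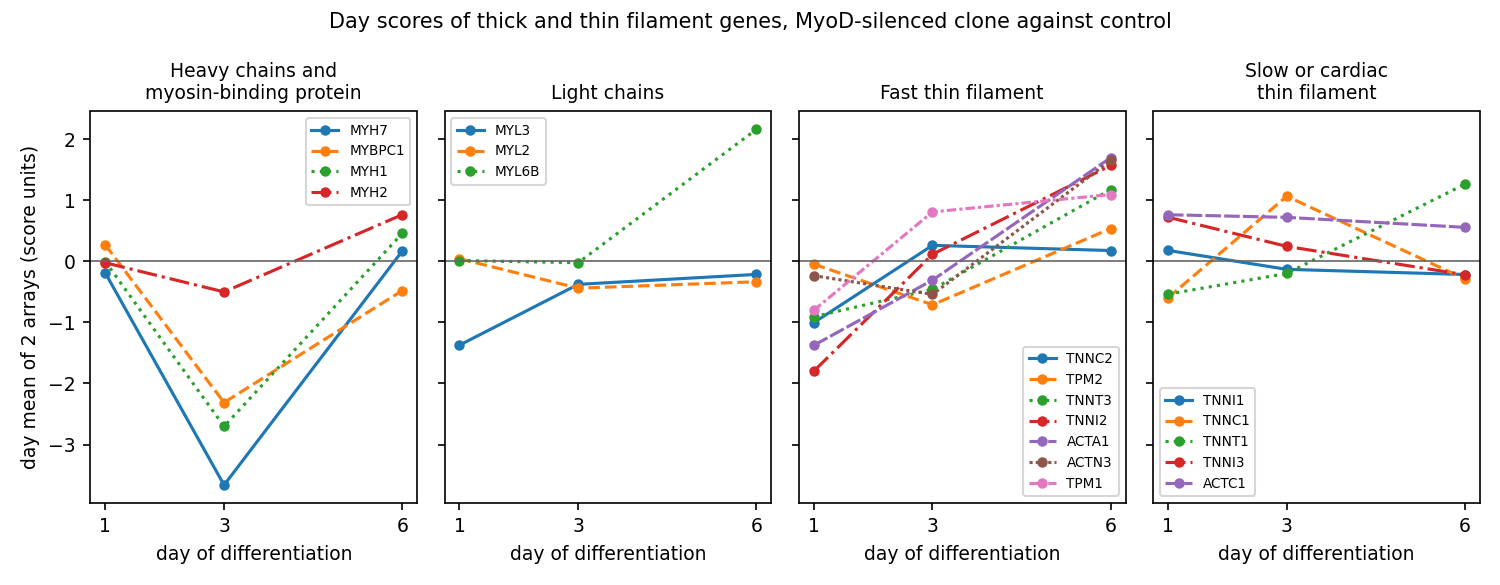
Day means of the 2 arrays (vertical axis, score units) against the day of differentiation (horizontal axis), 1 line per gene. The panels hold the heavy chains with MYBPC1, the light chains, 7 genes listed as fast thin filament forms and 5 slow or cardiac thin filament genes. The heavy chain panel has its lowest points on day 3 (MYH7 at -3.66), and the fast thin filament panel runs from a median of -0.91 on day 1 to 1.17 on day 6.

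Companions of slow and fast fibres outside the filaments did not pass on any day. For 5 slow companions the medians were -0.24, 1.18 and -0.12, with ATP2A2, the slow calcium pump, at 0.30 and CA3 at 0.13 highest over the days, and myoglobin (MB, -0.45) and CASQ2 (-0.35) lowest. For 6 fast companions they were -0.33, -0.31 and 0.74. The glycolytic enzyme ALDOA was at least 2 units lower on both day 3 arrays (-2.01 and -2.31, limma's adjusted p = 0.203) and, with PKM (-0.32), lowest over the days at -0.45, while PFKM (0.14) and CASQ1 (0.02) were highest. Of 16 calcineurin and fibre type regulators, 4 were measured, with medians of -0.87, -0.0054 and -0.38, from MEF2D (-0.93) and MYOZ2 (-0.55) to PPP3CA (-0.17) and MYOZ1 (-0.01).

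None of the general muscle markers passed limma's 6-array fit on day 3. On that day DES stood at 0.03, CKM at -0.15 over 11 probes, ACTA1 at -0.31, TNNT3 at -0.46 and MYOD1 at 0.04, a median of -0.15 for the 5 measured of 7. Markers of other cell types were few. On day 3 the smooth muscle markers TAGLN and CNN1 stood at -0.73 and 0.12, the fibroblast markers VIM and FN1 at -1.73 and -0.33, the adipocyte markers SCD and FABP4 at -1.56 and 0.27, and the heart marker TNNI3 at 0.24. None of these passed limma's 6-array fit, and their part in the MYH7 score was not tested.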

How the data were processed

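The 6 arrays, hybridised in both colours with RNA of the MyoD-silenced clone and control C2C12 cells, covered days 1, 3 and 6 with 2 arrays each. The deposited value is a score per spot. Its filter, normalisation and scale are not given in the sources used here. There were 0 missing values, and 2 values were too large for a log2 ratio of a scanner, so scores were not read as log2 ratios and no fold changes are given, although the design had allowed for a log2 scale.

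GEO's platform annotation gave 1 symbol for 3486 spots and none for 1890. Duplicate spots and then the probes of a gene were averaged to 2466 features, centred on each array's median. MYLPF was matched as MYL11 through its Entrez Gene number. The main test was limma 3.58.1 in R 4.3.3 on 3 day means (intercept, two-sided, Benjamini-Hochberg over all features, threshold 0.05). Beside it stood a fit of the 6 arrays with days as coefficients, which measures technical spread only, and a threshold of 2 units on both arrays. The fits were also run on simulated data with independent normal noise, which does not check their p-values on these scores. Nothing says that arrays of a day came from separate cultures, so p-values measure only the spread between these samples, and signal over background is unknown.

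The genes, lists and the 2-unit threshold were chosen with earlier results of these data known. Named genes are all genes of the set, the 2 highest and 2 lowest of each list by mean over the days, and the markers. Also named are the 3 nearest genes to each member with a day mean at least 2 units from 0. ALDOA and PPP1R14B passed a threshold on day 3, and LDB3 was named by likeness. TNNT1 was named after its values were seen, for its likeness to TNNT3. Promoters are from RefSeq (GRCm38.p6). Python 3.11.15 with matplotlib 3.10.9 drew the plots.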

Additional observations from a re-analysis of the deposited data

Results flagged for a closer look

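For a pair of genes, both arrays of a day shared a sign and both arrays of another day had the opposite sign. MYBPC1 was above 0 on both arrays of day 1 and below 0 on both arrays of days 3 and 6, with means of 0.27, -2.31 and -0.48, so that day 3 minus day 1 was -2.58 and day 6 minus day 1 was -0.75. MYH7 was below 0 on both arrays of days 1 and 3 and above 0 on both of day 6, with day 6 minus day 3 at 3.83 and day 6 minus day 1 at 0.36. The sign pattern itself was not tested. In limma's 6-array fit the adjusted p of these differences were 0.549 and 0.844 for MYBPC1 and 0.132 and 0.936 for MYH7, and 14.2%, 15.6% and 13.5% of all features had such opposite signs between days 1 and 3, days 1 and 6, and days 3 and 6. The day 1 and day 6 scores of MYH7 lay within 0.30 of 0.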

How the results depend on the processing

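Of 449 recomputed values, 386 stayed on the same side of the test's threshold with the same direction or, for counts and differences with no test, within 1.5 times the count or 1 SD of the arrays, and 0 called values changed sign. Part of these could not move, since leaving out an array or a day leaves the scores and 2-unit counts of the other days as they were. The number 386 is therefore no measure of stability. The day 3 score of MYH7 missed limma's threshold with the median of a gene's spots (-3.15), with the replicate block (-3.66, adjusted p = 0.0682), without day 1 (-3.66) and without any single array of day 1 or day 3 (-4.24 to -3.08). It passed without either day 6 array (-3.66, adjusted p = 0.00943). The count of the 7 genes passing on day 3, 1 here, was 2 with separate probes and 0 with the median of spots, with the replicate block and without day 1. With separate probes, here and in the next counts, a gene was counted when any 1 of its probes was, which favours higher counts. The count at least 2 units from 0 on both arrays of day 3, 1 here, was 2 with separate probes, neighbouring probes subtracted or the MYBPC1 probe at spots 101 and 102 left out, 3 at 1 or 1.5 units, and 1 to 3 without single arrays. At 1 unit it was 1 on day 1. On day 6 it was 1 with separate probes, through the MYL3 probe at spots 1743 and 1744, and 0 to 2 without single arrays. The slow minus fast heavy chain difference of day 3, -2.06, was -1.36 with the median of spots and -1.36 without the spot of each gene farthest from its median, with this choice and the omitted MYBPC1 probe added after seeing the data; with separate probes it was not computed.

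Over all features, 9 passed the shared test, against 4 with the median of spots, neighbouring probes subtracted or the farthest spot left out, 5 with the replicate block, 29 without day 1, 0 without day 3 or day 6, and 0 to 8 without single arrays. Features at least 2 units from 0 on both arrays numbered 20, 31 and 45 on days 1, 3 and 6. At 1 unit they were 177, 204 and 268, at 1.5 units 46, 79 and 113, at 3 units 8, 7 and 7, and without single arrays 20 to 154, 31 to 216 and 45 to 249, where a lone array stands for the day. The replicate letter is also the dye orientation. Deviations of same-letter arrays from their day means correlated between days at -0.0377 to -0.00184, so the letters were not treated as pairs. The cause of these shifts was not tested.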
